A study of Mus musculus with 4 samples.

Results

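The Col4a1-high cells of fat P2 are sorted stromal cells of mouse fat whose RNA is rich in Col4a1 and Col4a2, the genes of the main pair of collagen IV chains. They were chosen from the counts themselves: barcodes with at least 25 Col4a1 and Col4a2 UMIs per 10000, fewer than 70 Pi16 UMIs per 10000 and 0 UMIs of the endothelial genes Pecam1, Cdh5 and Cldn5. A UMI (unique molecular identifier) marks 1 captured RNA molecule, and a barcode marks 1 droplet, usually 1 cell. The rule chose 1231 of the 7898 kept fat P2 barcodes (15.6%, exact Clopper-Pearson 95% interval 14.8 to 16.4), out of 11934 kept barcodes in 4 libraries. A barcode was kept if it held 1000 or more UMIs from 500 or more genes, with mitochondrial transcripts making up no more than 10%.

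The study sorted vessel progenitor cells from fat and lung of C57BL/6 mice into a P1 and a P2 gate and made 1 library of each by droplet-based single-cell RNA sequencing. Cells of both gates lacked CD45 and Ter119, markers of leukocytes and of the erythroid line, and carried Tie2, the angiopoietin receptor. P2 cells, which include those described here, were PDGFRa positive, CD31 negative, CD105 low and Sca1 high, and P1 cells were PDGFRa negative, CD31 positive, CD105 high and Sca1 low. Sex, age, fat depot and number of animals are not given in the sources used here. With 1 library per group there was no replicate, so no test was made, and the intervals below cover counting error only.

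Adipose stroma holds fibroblast-like cells at several stages on the way to fat cells. Interstitial progenitors marked by Pi16 and Dpp4 lie in the sheets of connective tissue around the fat, and committed preadipocytes, marked by Icam1, Vcam1, Aoc3, Pparg, Fabp4 and Lpl, lie closer to vessels. Maturing fat cells, vessels and mural cells are each wrapped in basement membrane, a thin matrix sheet of a collagen IV network and a laminin network joined by nidogen and perlecan. Each collagen IV molecule is a triple helix, most often of 2 Col4a1 chains and 1 Col4a2 chain.

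The library held 9025 barcodes and 44711105 UMIs. The Col4a1-high cells had 7264354 UMIs with a median of 5569 UMIs and 2231 genes per barcode, and the other 6667 kept barcodes had 36334718 UMIs with medians of 5089 and 2078. Mitochondrial UMIs had a median share of 3.08% in the Col4a1-high cells and 2.86% in the others, and UMIs of ribosomal protein genes 10.2% and 14.4%. Fat P2 shared 8 barcodes with the library labelled fat P1, 5 with lung P2 and 54 with the library labelled lung P1, and 1, 0 and 9 of these were Col4a1-high cells. Tissue markers of the P1 libraries went against their labels: Foxf1, a lung mesenchyme and vessel factor, stood at 716 CPM (UMIs per 1000000) in the library labelled fat P1 and 3.58 CPM in the library labelled lung P1. Below, the P1 libraries enter only the counts of barcodes by collagen IV level and endothelial UMIs, given under these labels.

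Col4a1 and Col4a2 lie head to head on mouse chromosome 8 (GRCm38, the assembly also called mm10). Col4a1 (ENSMUSG00000031502) runs on the minus strand from 11198423 to 11312826, and Col4a2 (ENSMUSG00000031503) on the plus strand from 11312805 to 11449287. In GENCODE vM21 the first exons of the genes overlap by 22 bases, so a single stretch of DNA serves as promoter in both directions. The 250 bases before the annotated start are shown for the 3 genes that had the largest ratios after the collagen IV pair among those that have an entry in the RefSeq table (build GRCm38.p6): Cxcl14 (chr13:56296552-56296801, minus strand), Col15a1 (chr4:47207762-47208011, plus strand) and Col5a3 (chr9:20815068-20815317, minus strand). Each is written 5′ to 3′ in the direction of its gene. Capitals mark matches on either strand to 5 motifs: TATAAA (the TATA box), CCAAT (bound by NF-Y), GGGCGG (the GC box), TGACTCA (the AP-1 site) and the EBF palindrome.
Cxcl14: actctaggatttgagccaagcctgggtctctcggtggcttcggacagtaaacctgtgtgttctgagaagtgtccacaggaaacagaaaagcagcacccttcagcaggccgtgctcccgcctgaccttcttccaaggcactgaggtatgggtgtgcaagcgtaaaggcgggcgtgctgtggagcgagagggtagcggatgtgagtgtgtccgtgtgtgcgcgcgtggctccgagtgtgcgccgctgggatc
Col15a1: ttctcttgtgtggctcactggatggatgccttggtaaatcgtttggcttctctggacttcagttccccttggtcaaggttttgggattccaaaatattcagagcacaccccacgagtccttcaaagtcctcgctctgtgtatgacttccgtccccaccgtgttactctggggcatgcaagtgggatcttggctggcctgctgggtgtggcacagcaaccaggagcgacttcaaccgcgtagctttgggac
Col5a3: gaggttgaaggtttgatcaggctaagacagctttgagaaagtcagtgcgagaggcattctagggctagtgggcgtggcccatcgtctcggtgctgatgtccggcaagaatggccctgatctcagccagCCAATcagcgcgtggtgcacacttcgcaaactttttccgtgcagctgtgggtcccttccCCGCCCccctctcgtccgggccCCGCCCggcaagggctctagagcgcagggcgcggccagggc
The Col5a3 window held CCAAT at 122 bases before the start and GGGCGG, on the opposite strand, at 63 and 41 bases, and the other windows held no match. Among 27025 promoter windows of the same length, 34.5% held CCAAT, 33.0% the GC box, 13.0% the TATA box, 4.43% the AP-1 site and 0.773% the EBF palindrome. A match is a run of letters and does not show that a factor binds there.

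Collagen IV level formed a continuous range in fat P2 with no gap at the limit of the rule. The Col4a1-high cells carried 3 to 202 Col4a1 and Col4a2 UMIs with a median of 23. Of them 42 had 5 or fewer, 1101 had 10 or more, and 1214 had at least 1 UMI of each chain. At the limits of the rule, high collagen IV and high Pi16 rarely met. Of the 1241 kept barcodes at or above the collagen IV limit, 2 had Pi16 at 70 per 10000 or more (0.161%, 0.0195 to 0.581). Below it 1980 of 6657 did (29.7%, 28.6 to 30.9). Both limits belong to the rule and were set with these data known, so these shares describe the rule and test nothing. Another 8 barcodes at or above the limit had an endothelial UMI. In the other libraries collagen IV above the limit came mostly with endothelial UMIs: in 181 of 188 such barcodes in the library labelled fat P1 and 100 of 101 in the library labelled lung P1, against 5 of 72 in lung P2. The same rule therefore passed 7, 1 and 67 barcodes there.

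**Figure D1:**
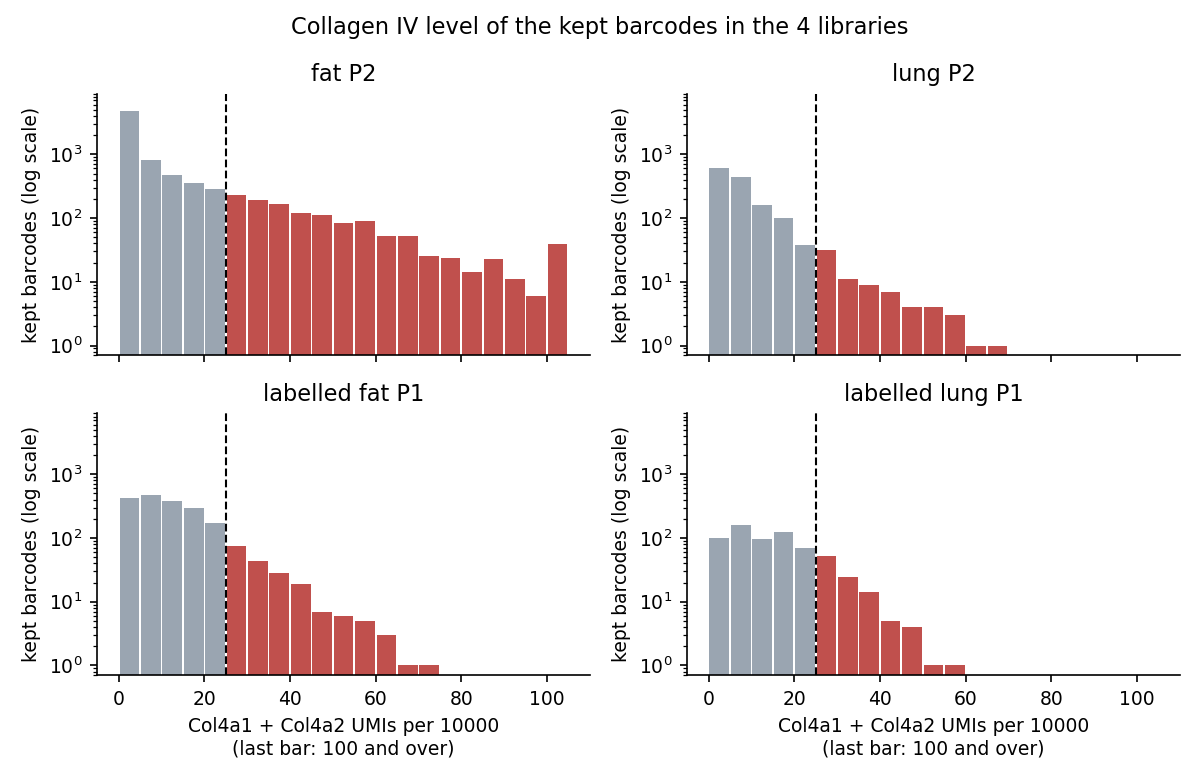
Number of kept barcodes (y axis, log scale) by Col4a1 plus Col4a2 UMIs per 10000 (x axis, steps of 5) in each library. Red bars lie at or above the limit of 25 (dashed line), which 1241 fat P2 barcodes passed before the other parts of the rule, and the counts fall off without a gap at the limit.

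The chains stood in nearly the same proportion in both groups. In barcodes thinned to 2000 UMIs, Col4a1 gave 2.08 UMIs for each Col4a2 UMI in the Col4a1-high cells (6873 and 3309 UMIs) and 2.11 in the other barcodes (3728 and 1765). These are counts of 3′ ends and not of chains. Across the 7191 thinned barcodes the mean Col4a2 count climbed with each step of Col4a1, from 0.141 UMIs where Col4a1 had 0 to 1.46 where it had 3 and 3.73 where it had 8 or more. The correlation was 0.676 (Pearson) over those barcodes and 0.301 over the 1106 Col4a1-high cells among them. All barcodes share 1 library, and the rule cuts on the sum of the pair.

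Against all other kept fat P2 barcodes, the Col4a1-high cells carried more RNA for basement membrane genes, fibrillar and microfibrillar collagens and preadipocyte genes, and less for genes of the Pi16 progenitors. UMIs were summed over each group and set against each other as a log2 ratio after adding 10 CPM. Of 3459 genes at 50 CPM or more in either group, 139 were at least 2-fold higher (4.02% of the genes compared) and 175 at least 2-fold lower (5.06%). The median log2 ratio over all 3459 genes was 0.029. Since the rule chose the cells by 3 features of this same table, these counts and every ratio of this contrast describe the cells and test nothing. Against the 4638 other barcodes that met every part of the rule except the collagen IV limit, 96 genes were at least 2-fold higher (2.8% of 3431) and 127 lower (3.7%). All 139 higher genes had a ratio above 0 there, and 96 of them were past 2-fold. All 175 lower genes were below 0, and 140 were past 2-fold. Some of the 140 lay under 50 CPM in this comparison and so are not in its count of 127. Both comparisons use the same Col4a1-high cells, and the 4638 barcodes are part of the others in the first. This overlap was therefore largely fixed in advance and is no independent check.

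Col4a1 stood at 3119.9 CPM (3079 to 3161, exact Poisson 95% interval) in the Col4a1-high cells and 332 CPM in the others, and Col4a2 at 1479.7 and 157 CPM, as the rule requires. The gene with the largest ratio outside the rule was Cxcl14, a chemokine of skin and fat stroma (ENSMUSG00000021508, chromosome 13, 56288643 to 56296551), at 714 CPM (694 to 733) against 69.2 CPM (66.6 to 72.0), a log2 ratio of 3.19. Sparcl1, a secreted glycoprotein of the SPARC family, stood at 1228 against 209 CPM (log2 ratio 2.50). Nrep, a small protein that acts on TGF beta signals, stood at 207 against 30.4 CPM (2.42), and Smoc2, a secreted calcium-binding matrix protein, at 987 against 210.4 CPM (2.18). Intervals of both groups lay far apart for each of these genes, which counts molecules and not animals.

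Less abundant genes among the 15 with the largest ratios were Meox1, a homeobox factor (59.6 against 6.08 CPM), and Olfm2, an olfactomedin (51.1 against 4.40). Adam12, a metalloprotease found in fibroblasts of growing tissue, stood at 67.4 against 8.86 CPM. Cyp1b1, a cytochrome P450 enzyme (ENSMUSG00000024087, chromosome 17, 79701537 to 79715061), stood at 176 against 35.4 CPM. The 4 genes were low in absolute terms, with 371 to 1276 UMIs in the Col4a1-high cells.

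**Figure D2:**
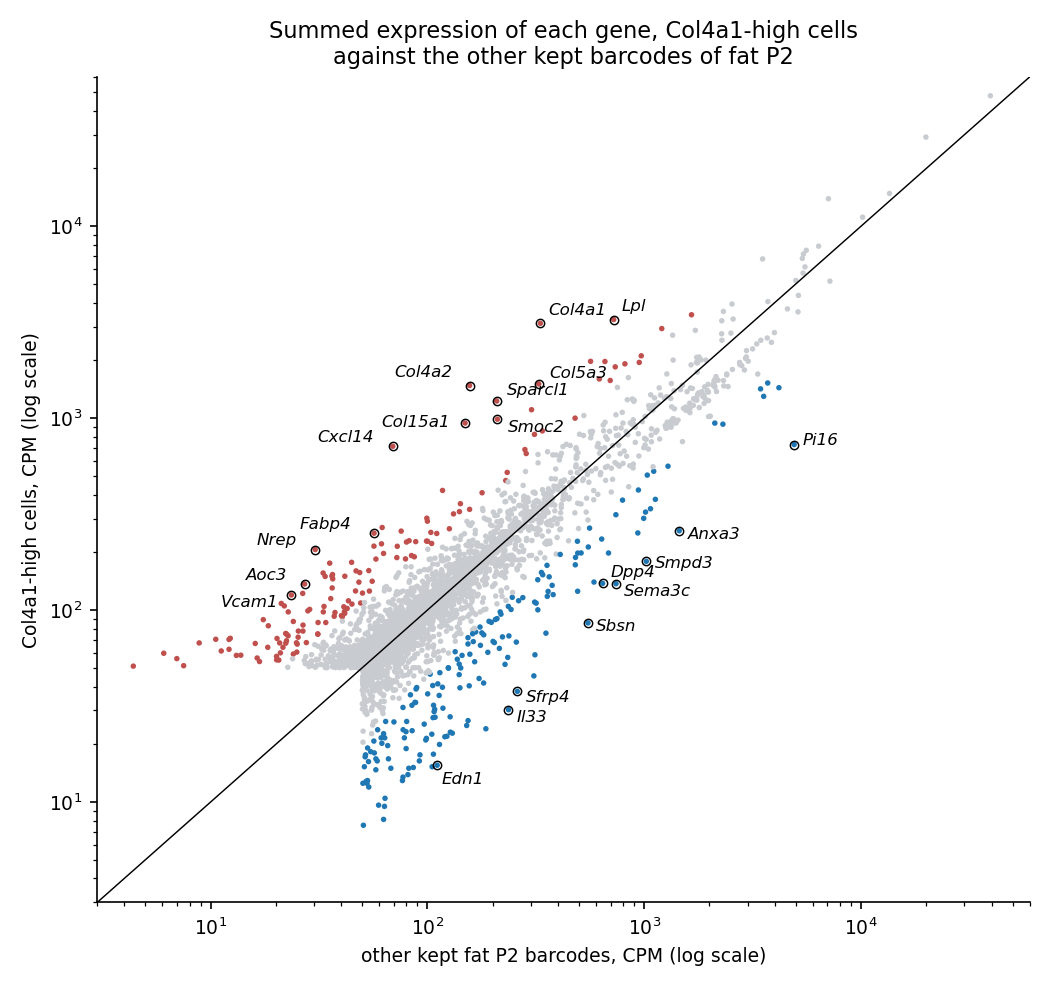
CPM of each of the 3459 compared genes in the other kept fat P2 barcodes (x axis) and in the Col4a1-high cells (y axis), both on log scales. Red points are at least 2-fold higher and blue points at least 2-fold lower after adding 10 CPM, the line marks equal levels, and Col4a1, Cxcl14 and Lpl lie far above it while Pi16, Anxa3 and Il33 lie far below.

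Other genes of the basement membrane differed in an uneven way. Of 25 genes besides the collagen IV pair, 18 were measured at 20 CPM or more in either group, of which 7 were at least 2-fold higher, 1 was at least 2-fold lower and 10 were not past 2-fold. Their median log2 ratio was 0.48. Of all compared genes 4.02% were at least 2-fold higher and 5.06% lower. The multiplexins, collagens with sites for sugar chains that tie the basement membrane to the matrix around it, were among the highest. Col15a1 (ENSMUSG00000028339, chromosome 4, 47208161 to 47313167) reached 944 CPM (921 to 966), where the others had 149 CPM (145 to 153). Col18a1 (chromosome 10, 77052178 to 77166548) reached 269 against 61.9 CPM.

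The linkers of the basement membrane split between the paralogs. Nid2, 1 of the nidogens that join laminin to collagen IV (chromosome 14, 19751265 to 19811787), stood at 122 CPM against 26.6 CPM (log2 ratio 1.85). Its paralog Nid1 (chromosome 13, 13437551 to 13512269) was the more abundant in UMIs and nearly level, at 1436 against 1634 CPM (-0.18). Hspg2, which encodes perlecan, stood at 823 against 312 CPM (1.37), while Agrn, the agrin gene, stood at 23.9 against 21.5 CPM (0.11).

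Laminins, the trimers that start a basement membrane, showed 1 gene past 2-fold. Lamc3, a gamma chain, stood at 42.7 CPM against 5.72 CPM (1.74). Lamb1 stood at 647 against 324 CPM (0.98), just under 2-fold, and Lama2 at 606 against 406 CPM (0.57). Lama4 stood at 297 against 255 CPM (0.21), Lamc1 at 712 against 607 CPM (0.23) and Lamb2 at 184 against 273 CPM (-0.54). The scarce gamma chain thus had the largest ratio, and the abundant alpha, beta and gamma chains stayed within 2-fold.

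Col4a3 and Col4a4, the chains of the specialised collagen IV of kidney, lung and eye, were low but followed the main pair, at 24.9 against 4.24 CPM (1.29) and 59.1 against 24.1 CPM (1.02). Col4a5, which joins them in the same trimer, was not higher (21.9 against 30.8 CPM). Ntn4, a netrin that binds laminin, was the gene at least 2-fold lower, at 20.8 against 56.6 CPM (-1.11). Col4a4 lay so near 2-fold that several alternatives took it below, and Ntn4 stood at -0.94 against the barcodes that met the rest of the rule.

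Most genes of the machinery that folds and cross-links collagens stayed within 2-fold. Of 23 measured genes of 26, 18 had a ratio above 0 (1881 of the 3459 compared genes did). At least 2-fold higher were 3 of the 23, and 4.02% of all compared genes. None of the 23 was at least 2-fold lower, and their median log2 ratio was 0.27. Plod1, a lysyl hydroxylase, stood at 86.2 against 31.3 CPM (1.22). Lox, the lysyl oxidase that starts cross-links, stood at 229 against 99.1 CPM (1.13), and Pcolce, which speeds procollagen cleavage, at 1000.2 against 479.9 CPM (1.04). Of these only Plod1 remained past 2-fold against the barcodes that met the rest of the rule. Serpinh1, the collagen chaperone HSP47, stood at 2008 against 1359 CPM (0.56), and Pxdn, the peroxidase that makes sulfilimine bonds in collagen IV, was level at 104.9 against 109 CPM (-0.05).

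Collagens of the interstitial matrix were higher in several genes too. Of 13 measured, 5 were at least 2-fold higher and 1 was lower, with a median log2 ratio of 0.93. Over all compared genes 4.02% were higher and 5.06% lower. Col5a3, a regulator of fibril growth (ENSMUSG00000004098, chromosome 9, 20770050 to 20815067), stood at 1509 CPM (1480 to 1537) against 326 CPM (320 to 332). The collagen VI genes, whose microfibrils surround fat cells, stood at 1977 against 566 CPM for Col6a3, 1601 against 621 CPM for Col6a2 and 1952 against 949 CPM for Col6a1. Col3a1, a fibril collagen, was nearly 2-fold higher at 13909 against 7073 CPM (0.97), and Col1a1 differed less at 6795 against 5362 CPM (0.34). Col14a1 was the gene that was lower, at 337 against 1069 CPM (-1.64).

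Most receptor genes for these matrix proteins stayed within 2-fold. Of 10 measured genes 1 was at least 2-fold higher, Itga8, an integrin chain that pairs with beta 1 (25.6 against 5.53 CPM, 1.20). None of the 10 was at least 2-fold lower, and their median log2 ratio was -0.11. Over all compared genes 4.02% were higher and 5.06% lower. Itga1, a collagen receptor chain, stood at 31.3 against 13.2 CPM (0.83), and Itgb1 at 411 against 312 CPM (0.39). Ddr2, a collagen receptor kinase, stood at 324 against 540.0 CPM (-0.72), and Itga11 at 55.2 against 112 CPM (-0.91).

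Among proteoglycans and enzymes of the matrix, Bgn, which encodes biglycan, stood at 1107 against 302 CPM (1.84) and Lum, lumican, at 2929 against 1205 CPM (1.27), while Omd, osteomodulin, was lower at 20.2 against 61.7 CPM (-1.25). They were 2 higher and 1 lower of 7 measured small leucine-rich proteoglycans. Over all compared genes 4.02% were at least 2-fold higher and 5.06% lower. Of 14 measured proteases and inhibitors 3 were at least 2-fold higher: the aggrecanase Adamts4 (58.2 against 13.8 CPM), Adamts12 (291 against 100 CPM) and the stromelysin Mmp3 (858 against 339 CPM). Mmp3 was at 0.94 log2 against the barcodes that met the rest of the rule. Timp2, an inhibitor of metalloproteases, stood at 1698 against 3340.4 CPM (-0.97). Of 12 elastic fibre genes Emilin1 alone was at least 2-fold higher (98.1 against 41.4 CPM), and it too was at 0.94 there. Fbn1, fibrillin 1, stood at 1019 against 1982 CPM (-0.95).

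Genes of committed preadipocytes were higher as a group, as the name given to the cells has it. Of 20 listed genes 18 were measured, 13 were at least 2-fold higher, none was at least 2-fold lower and the median log2 ratio was 1.52. Over all compared genes 4.02% were higher. The list was written with earlier results of these data known, so its direction is not independent evidence. Lpl, the lipase that frees fatty acids from lipoproteins (ENSMUSG00000015568, chromosome 8, 68880491 to 68907448), stood at 3266 CPM (3224 to 3308) against 723 CPM (714 to 732). Fabp4, a fatty acid carrier (chromosome 3, 10204088 to 10208576), stood at 252 against 56.8 CPM (1.97). Pparg, the master regulator of fat cell formation (chromosome 6, 115360951 to 115490399), reached 43.8 CPM (39.1 to 48.9) in the Col4a1-high cells and 8.59 CPM (7.66 to 9.59) in the others, a log2 ratio of 1.53.

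Surface genes of preadipocytes behaved likewise. Vcam1, an adhesion receptor for leukocytes, had 119.9 CPM (112 to 128) where the others had 23.6 CPM (22.0 to 25.2). Icam1, the classical sort marker of committed preadipocytes, stood at 157 against 48.8 CPM (1.51). Aoc3, an amine oxidase of the cell surface (chromosome 11, 101330605 to 101341938), stood at 137 against 27.1 CPM (1.98). Pdgfrb, a growth factor receptor of perivascular cells, stood at 317 against 132 CPM (1.20), Ggt5 at 146 against 36.6 CPM (1.74) and Apoe at 1919 against 815 CPM (1.23). Among the factors of early fat cell formation the ratios were small: Cebpa stood at 20.5 against 10.5 CPM (0.57), Cebpb at 288 against 220 CPM (0.38) and Cebpd at 1439 against 1173 CPM (0.29). Ebf1 (785 against 1003 CPM, -0.35) and Ebf2 (162 against 259.7 CPM, -0.65) stood lower. Against the barcodes that met the rest of the rule 12 of the 18 were at least 2-fold higher, Apoe being at 0.80.

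Mature fat cell genes were scarce. Of 15 adipocyte genes 1 reached 20 CPM in either group, the lipase Pnpla2 (17.6 against 22.1 CPM). Car3, a carbonic anhydrase, stood at 17.8 against 5.09 CPM, and the 15 genes summed to 63.7 against 45.2 CPM. Without thinning, 5.85% of the Col4a1-high cells and 2.83% of the others had 2 or more UMIs of the list. Adipoq, the adiponectin gene, and Plin1, which coats lipid droplets, each stood at 0.138 CPM, and Cidec, Cidea, Lep and Pck1 had 0 UMIs, which allows up to 3 UMIs in the group. Cycling genes were as low: none of 10 proliferation genes was measured, and Mki67 stood at 0.138 CPM.

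The share of cells with a UMI differed widely between genes and followed depth. After each barcode was thinned to 2000 UMIs, which left out 125 Col4a1-high cells and 582 others, Col15a1 had a UMI in 78.8% of Col4a1-high cells (76.3 to 81.2) and 14.97% of others (14.1 to 15.9). Unthinned shares were 92.4% and 23.2%. Cxcl14 had a UMI in 38.2% (35.3 to 41.1) and 5.29% (4.74 to 5.88), with unthinned shares of 48.8% and 8.55%. Vcam1 had a UMI in 18.5% and 4.11% (unthinned 35.6% and 8.82%), Fabp4 in 23.4% and 3.04% (37.5% and 6.37%) and Pparg in 8.41% and 1.51% (19.7% and 3.75%). Pi16-high barcodes gave 1.87% for Col15a1, 0.933% for Cxcl14, 2.31% for Vcam1, 0.714% for Fabp4 and 0.604% for Pparg, at a median of 5029 UMIs. Their unthinned shares were 4.37%, 1.93%, 5.08%, 1.73% and 1.17%. For these genes the shares in the Col4a1-high cells lay above those of the Pi16-high set. That set did not lack all preadipocyte genes. After thinning, Lpl had a UMI in 53.6% of it and 95.2% of the Col4a1-high cells. Ebf1 (87.5% and 72.5%) and Ebf2 (44.1% and 25.9%) had a UMI more often in the Pi16-high set.

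Genes of interstitial progenitors were lower nearly throughout. Of 17 listed genes, all measured, 16 were at least 2-fold lower and none higher, with a median log2 ratio of -1.99. Without Pi16, which the rule used, the median was -1.94. Over all compared genes 5.06% were at least 2-fold lower. Pi16 itself, a peptidase inhibitor, stood at 729 against 4915 CPM. Il33, an alarmin cytokine (chromosome 19, 29925114 to 29960718), stood at 30.3 CPM (26.4 to 34.6) against 237 CPM (232 to 242), a log2 ratio of -2.61. Sema3c, a secreted guidance protein (chromosome 5, 17574281 to 17730268), stood at 137 against 741 CPM (-2.35), and Anxa3, an annexin (chromosome 5, 96793339 to 96845966), at 259 against 1451 CPM (-2.44). Dpp4, the surface peptidase used to sort these progenitors, stood at 138 against 643 CPM (-2.14). Has1, a hyaluronan synthase, did not pass 2-fold (223 against 368 CPM, -0.70).

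Outside that list the lowest genes were Sbsn, a secreted protein of epidermis (85.8 against 550.3 CPM), Akr1c18, a steroid-converting reductase (45.4 against 310 CPM), and Aldh1a3, which makes retinoic acid (24.1 against 186 CPM). Smpd3, a sphingomyelinase, stood at 179.5 against 1023 CPM and Edn1, the gene of the vessel-constricting peptide endothelin 1, at 15.6 against 111 CPM. Even after thinning, 34.4% of Col4a1-high cells had a Pi16 UMI (31.6 to 37.3), against 84.7% of the others, and 51.7% and 88.3% did so unthinned. Of the 1231 cells 595 had 0 Pi16 UMIs. In those 595 cells Dpp4 stood at 41.0 CPM and Il33 at 5.72 CPM, and in the 636 with a Pi16 UMI at 212 and 49.1 CPM.

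**Figure D3:**
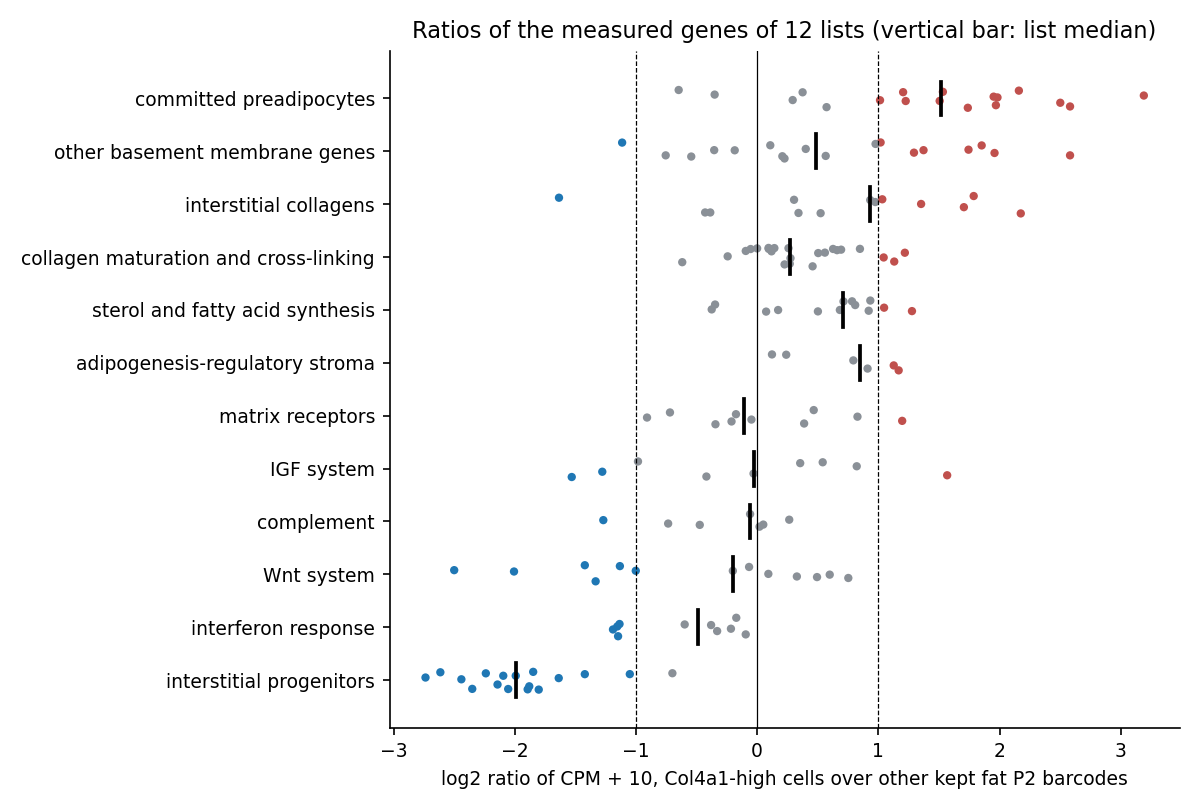
Log2 ratios of CPM plus 10 (x axis) for each measured gene of 12 gene lists (rows), Col4a1-high cells over other kept fat P2 barcodes. Red and blue points are past 2-fold (dashed lines), the black bars are list medians, from 1.52 for committed preadipocytes to -1.99 for interstitial progenitors, and the vertical scatter within a row is for legibility.

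Signal genes past 2-fold were lower in the Wnt list and divided in the BMP list. Among Wnt genes 6 of 13 measured were at least 2-fold lower and none higher. Over all compared genes 5.06% were lower and 4.02% higher. Against the barcodes that met the rest of the rule 4 Wnt genes were at least 2-fold lower. The 6 included the ligands Wnt2 (68.7 against 201 CPM) and Wnt10b, which holds back fat cell formation (8.12 against 62.8 CPM), and the secreted antagonists Sfrp2 (213 against 552 CPM) and Sfrp4 (37.7 against 259.9 CPM). Among BMP genes 1 of 13 was higher, the BMP-binding protein Bmper (89.2 against 17.5 CPM), and 2 were lower, the antagonist Chrdl1 (40.3 against 156 CPM) and the ligand Bmp7 (8.12 against 46.4 CPM). In the TGF beta list of 16 measured genes, Nrep was among those at least 2-fold higher. The ligand Tgfb2 (31.9 against 107 CPM) and the receptor Tgfbr2 (314 against 740.3 CPM) were at least 2-fold lower.

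Binding proteins of the insulin-like growth factors also divided. Igfbp7 stood at 1973 against 659 CPM (1.57), while Igfbp5 stood at 1441 against 4181 CPM (-1.53) and Igfbp6 at 1525 against 3712 CPM (-1.28). Of 17 measured angiogenic ligands 2 were at least 2-fold higher, Fgf10, a growth factor for epithelium and fat (97.9 against 33.1 CPM), and Angptl4, an inhibitor of Lpl (69.2 against 22.4 CPM). Edn1, Pdgfc (6.19 against 47.6 CPM), Fgf2 (23.5 against 85.0 CPM) and Pgf (4.27 against 20.7 CPM) were at least 2-fold lower. Over all compared genes 4.02% were higher and 5.06% lower. Vegfa, the main growth factor of vessels, was level at 90.2 against 97.0 CPM. Angptl4, Pgf and Vegfa fall outside the rule for named genes and were chosen after their values were seen.

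Of 12 measured chemokines and cytokines, Cxcl14 and the neutrophil attractant Cxcl1 (420.3 against 117 CPM) were at least 2-fold higher. Il33 and the B cell attractant Cxcl13 (112 against 263.5 CPM) were at least 2-fold lower. Over all compared genes 4.02% were higher and 5.06% lower, which applies to each list in this paragraph. Of 7 complement genes C3 was lower, at 1421 against 3440.0 CPM (-1.27). Of 10 interferon response genes 4 were lower and none higher, among them Usp18 (14.0 against 44.8 CPM) and Irf7 (26.2 against 70.1 CPM). Against the barcodes that met the rest of the rule 2 of the 4 remained, with Ifit1 at -0.93 and Ifi27l2a at -0.98. The genes of sterol synthesis leaned upward: 11 of 13 sterol and fatty acid genes had a ratio above 0, as did 1881 of the 3459 compared genes. Hmgcs1 (358 against 142 CPM) and Sqle (93.6 against 40.1 CPM) were past 2-fold. Sqle was at 0.92 log2 against the barcodes that met the rest of the rule.

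Immediate early genes respond within minutes to stimuli and to cell dissociation. At least 2-fold higher were 3 of 16: Ier2 (1851 against 735 CPM), Zfp36 (2113 against 969 CPM) and Junb (3457 against 1652 CPM). Over all compared genes the share was 4.02%. Against the barcodes that met the rest of the rule Ier2 alone was past 2-fold, with Zfp36 at 0.86 and Junb at 0.82. Jun stood at 6753 against 3515 CPM (0.94), and the summed level of the 16 genes was 37626 against 24637 CPM. The part of this difference, and of the lower share of ribosomal protein UMIs, in the other results was not tested.

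The gate genes were present at RNA level in part. Pdgfra stood at 633 against 410.0 CPM, Pecam1 at 0 by the rule and Ptprc, the CD45 gene, at 0.275 CPM. Tek, the Tie2 gene, had 74.3 CPM (68.2 to 80.9) in the Col4a1-high cells and 182 CPM (178 to 186) in the others. Ly6a, which encodes Sca1, had 943 CPM (920.4 to 965) and 2116 CPM (2101 to 2131). Both were thus at least 2-fold lower in the Col4a1-high cells, though all cells passed the same gate. Against the barcodes that met the rest of the rule the ratio of Tek was -1.0, just short of 2-fold. After thinning 12.7% of Col4a1-high cells had a Tek UMI (10.8 to 14.9) and 27.7% of the others (26.6 to 28.9), with unthinned shares of 27.8% and 52.8%.

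Markers of other cell types were scarce. The 12 endothelial genes summed to 5.37 CPM in the Col4a1-high cells, 6 of them with 0 UMIs, and to 34.8 CPM in the others. The list includes Pecam1, Cdh5 and Cldn5, which the rule set to 0 in the Col4a1-high cells, so part of this gap was fixed in advance. The 12 leukocyte genes summed to 7.98 and 32.2 CPM. Of the 14 mural genes 4 were measured, and 3 were at least 2-fold higher (4.02% of all compared genes were). They were the receptor Notch3 (44.7 against 6.05 CPM), Ndufa4l2 (43.1 against 6.27 CPM) and Vtn, vitronectin (77.8 against 25.4 CPM). The genes that define mural cells stood near 0, with Rgs5 at 1.38, Acta2 at 8.12, Myh11 at 3.85 and Higd1b at 0.275 CPM. When barcodes with 2 or more UMIs of any other-type list were left out of both groups, 776 Col4a1-high cells were left and Notch3, Ndufa4l2 and Vtn stood at 0.999, 0.94 and 0.81 log2, short of 2-fold. Since 403 Col4a1-high cells (32.7%) had 2 or more UMIs of the mural list, that step drops cells for these very genes.

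The Col4a1-high cells were set beside 3 other sets of fat P2 barcodes. The sets were 1969 barcodes with Pi16 at 70 per 10000 or more and no endothelial UMI, the 661 other barcodes highest in F3, Clec11a and Fmo2 (genes of a stroma that restrains fat cell formation) and the 661 highest in Cxcl13. By construction none holds a Col4a1-high cell, and 188 barcodes were both Cxcl13-high and Pi16-high, which is 28.4% of the Cxcl13-high set and 9.55% of the Pi16-high set. Col15a1 stood at 944 CPM in the Col4a1-high cells, 288 in the F3 set, 54.2 in the Cxcl13-high and 15.3 in the Pi16-high set. Cxcl14 followed the same order at 714, 261, 63.4 and 4.73 CPM, and Sparcl1 at 1228, 399.5, 84.2 and 22.2 CPM.

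The order broke where the F3 set had genes of its own. Apoe stood at 3189.6 CPM in the F3 set and 1919 in the Col4a1-high cells, Mgp, a calcification inhibitor, at 1552 and 522 CPM, and Igfbp7 at 2456 and 1973 CPM. Icam1 was similar at 134 and 157 CPM. Genes of fat formation were higher in the Col4a1-high cells, with Pparg at 43.8 against 5.98 CPM, Fabp4 at 252 against 39.2 CPM and Lpl at 3266 against 936 CPM. Nid1 was highest in the Pi16-high set (1948 CPM) and lowest in the F3 set (890.2 CPM), with 1436 CPM in the Col4a1-high cells, whereas Nid2 stood at 7.49, 42.8 and 122 CPM. The nidogens were thus ordered in opposite ways between the Pi16-high and the Col4a1-high cells.

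**Figure D4:**
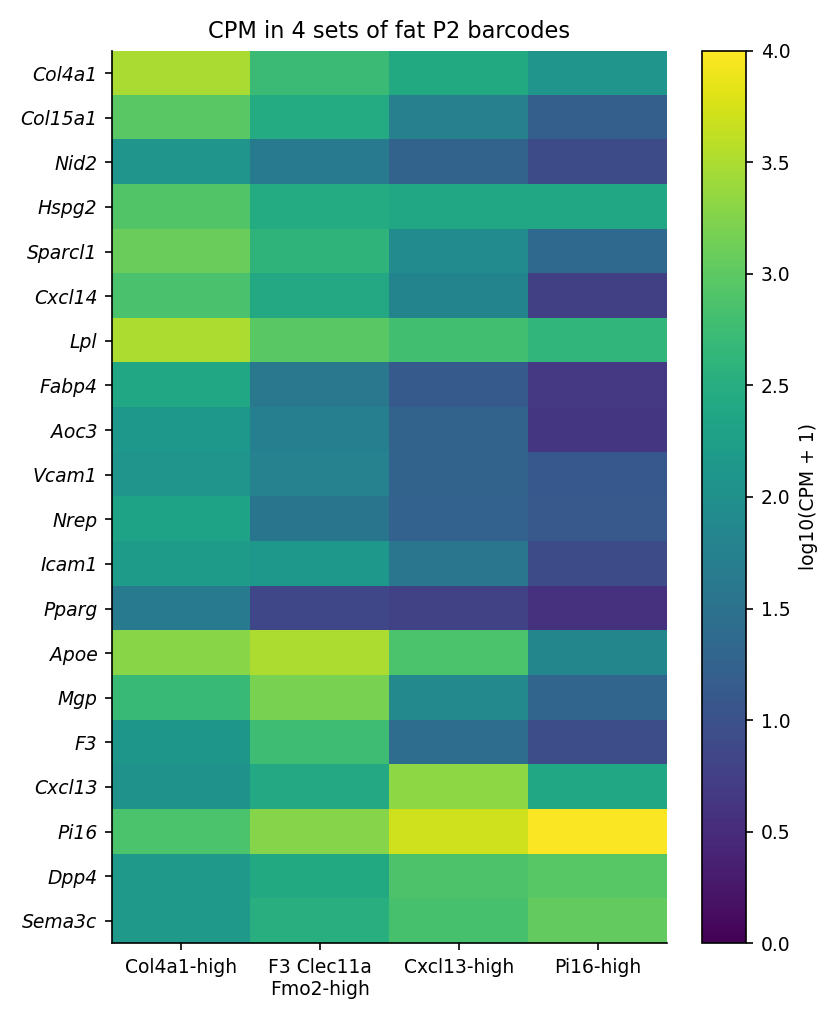
CPM of 20 genes (rows) in the Col4a1-high cells and 3 other sets of fat P2 barcodes (columns), coloured by log10 of CPM plus 1. The upper rows are brightest in the Col4a1-high cells, Apoe, Mgp and F3 are brightest in the F3 Clec11a Fmo2-high set, and Pi16, Dpp4 and Sema3c are brightest in the Pi16-high set.

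The same genes moved in steps with collagen IV among barcodes that met the rest of the rule, below the limit as well as above it. Lpl stood at 449.8 CPM where collagen IV was under 5 per 10000 (2878 barcodes), 1416 at 10 to 15 (426 barcodes), 2212 at 20 to 25 (283 barcodes) and 3996 at 50 or more (419 barcodes). Cxcl14 stood at 29.6, 181, 299 and 1015 CPM in the same bins, Col15a1 at 51.0, 483, 563 and 1215 CPM and Sparcl1 at 66.8, 637, 912 and 1520.2 CPM. Dpp4 ran the other way at 689.8, 305, 193 and 88.4 CPM, and Sfrp4 at 294.5, 123, 83.8 and 15.4 CPM. Median UMIs per barcode ran from 5073 to 5719 over the 8 bins.

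Other genes levelled off. Apoe stood at 605 CPM in the lowest bin, 2147 at 10 to 15 and 1742 at 50 or more, and Mgp at 157, 627 and 508 CPM. F3 stood at 61.8, 146 and 145 CPM and Igf1, a growth factor, at 185, 443 and 332 CPM. Igfbp2 was highest in the middle, at 4.47, 81.5 and 19.7 CPM. On the near sides of the limit some genes were close: Sparcl1 stood at 912 CPM in the 283 barcodes at 20 to 25 and 913 CPM in the 229 at 25 to 30, Aoc3 at 107 and 114 CPM, and Col15a1 at 563 and 714 CPM. Others stepped there: Fabp4 stood at 127 and 252 CPM, Cxcl14 at 299 and 506 CPM, Olfm2 at 25.4 and 46.9 CPM and Aldh1a3 at 70.5 and 34.0 CPM.

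**Figure D5:**
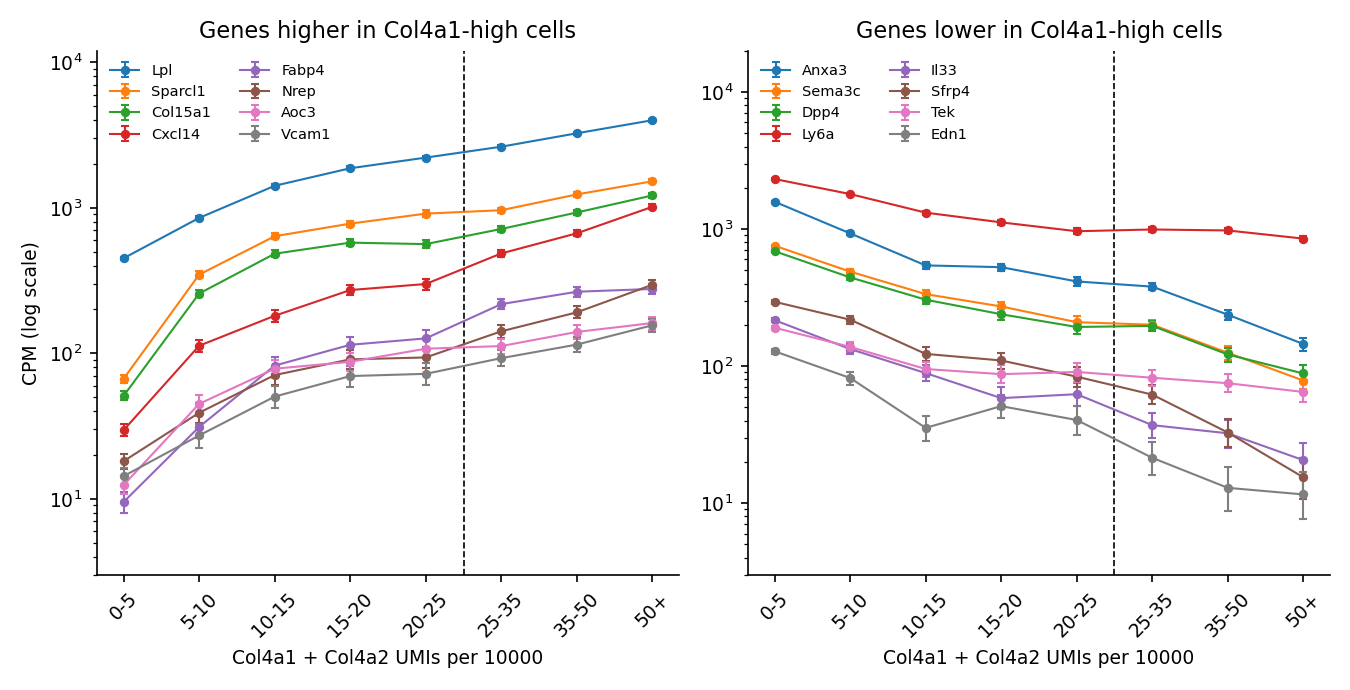
CPM (y axis, log scale, with exact Poisson 95% intervals for counting error) of 8 higher and 8 lower genes over 8 bins of Col4a1 plus Col4a2 UMIs per 10000 (x axis), among fat P2 barcodes that met the rest of the rule. Lpl, Cxcl14 and Nrep climb and Sfrp4, Il33 and Dpp4 decline on both sides of the limit of 25 (dashed line).

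The Col4a1-high cells were not uniform. In a clustering of the whole library 546 of them (44.4%) fell in 1 cluster of 751 barcodes, led by Nrep, Aoc3, Col4a1, Vcam1 and Olfm2. A second cluster led by Igfbp2, Hc, Slit2 and Tnc held 319 (25.9%), another led by Cilp, Thbs4, Hmcn2 and Myoc held 134 (10.9%), and 1 led by Fmo2 and F3 held 51. Another 135 (11.0%) fell in a cluster of 614 barcodes led by H19 and Scg3, in which 48.5% of barcodes had Scrublet doublet scores among the highest. The cluster with the largest share of the cells was thus led mostly by a gene of the rule and by given markers, which do not test the preadipocyte name. More than 1 in 2 of the cells lay in other clusters.

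Clustered alone, the 1231 cells formed 6 clusters. The largest, 453 cells (36.8%), was led by Tmem176b, the interferon-induced chemokine Cxcl10, Igfbp3, Apoe, Vcam1 and Icam1. In it Apoe stood at 3186 CPM, Vcam1 at 193 CPM and Icam1 at 248 CPM. A cluster of 243 cells had Alx4, Frem1, Ednra and Lamc3 among its leading genes. Fabp4 stood at 358 CPM there, the highest of the clusters, while Ly6a stood at 249 CPM.

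Smaller clusters differed in the very genes that set the whole group apart. In 119 cells led by Thbs4, Cilp and Myoc, Cxcl14 stood at 2389 CPM and Smoc2 at 3991 CPM, yet Fabp4 stood at 3.65 CPM, Pparg at 1.82 CPM and Aoc3 at 12.8 CPM. A group of 105 cells led by Pla2g7, Igfbp2 and Tnc had Col15a1 at 1592 CPM, Pdgfra at 1366 CPM, Ly6a at 88.3 CPM and Tek at 4.31 CPM. In 80 cells led by Car3, Cd36 and Aspn, Col4a1 stood at 4519 CPM, Lpl at 4818 CPM and Pparg at 63.4 CPM, and Fos, an immediate early gene, at 1308 CPM against 6082 to 9706 CPM in the other clusters. Across the 6 clusters Col4a1 ranged from 2335 to 4519 CPM, Cxcl14 from 371 to 2389 CPM and Fabp4 from 3.65 to 358 CPM. As a ratio of the highest to the lowest cluster, Col4a1 varied least of these genes. The rule chose every cell by its Col4a1 and Col4a2 UMIs, so this was partly fixed in advance.

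In 231 cells (18.8%) the leading genes were Pi16, Smpd3, Akr1c18, Sema3c, Sbsn and Dpp4, 5 of the 10 being interstitial progenitor genes, which goes against the preadipocyte name. Their median depth was 7316 UMIs, and 98 of them (42.4%) had Scrublet scores among the highest, against 0 to 1 cells in each of the other clusters. Pi16 stood at 2414 CPM and Lpl at 2089 CPM there. Over all Col4a1-high cells 101 (8.20%) had such scores, against 398 of the other barcodes (5.97%). The part of barcodes with 2 cells in this cluster was not tested. Without the 231 cells, 170 genes were at least 2-fold higher and 225 lower, with all 139 and 175 of the first comparison still past 2-fold.

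Y-linked genes (Ddx3y, Eif2s3y, Uty and Kdm5d) and Xist, the RNA of the silenced X chromosome, split the library. Of the kept barcodes 429 had a Y-linked UMI and no Xist, 6292 had Xist alone, 197 had both and 980 had neither, and 87, 993, 37 and 114 of these were Col4a1-high cells. Shares were 20.3% (16.6 to 24.4) among Y-linked barcodes and 15.8% (14.9 to 16.7) among Xist barcodes. Of the 139 higher genes 138 had a ratio above 0 in both and 113 were past 2-fold in both, and of the 175 lower genes 174 and 151. Cxcl14 stood at 1725 against 91.5 CPM among Y-linked barcodes and 564 against 65.4 CPM among Xist barcodes. Edn1 stood at 1.69 against 177 CPM and 13.9 against 104 CPM. How many animals gave either kind of barcode is not known, so these are no replicates. The 139 and 175 genes were called from a group of barcodes that includes these, so the overlap is no independent check.

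Barcodes with both kinds of transcript stood apart in depth. Their median was 10345 UMIs, against 6545 for Y-linked and 5230.5 for Xist barcodes. In the 37 Col4a1-high cells among them Pi16 stood at 2094 CPM and Akr1c18 at 184 CPM, close to the 205 CPM of the other barcodes of that kind. The cluster with Alx4 and Frem1 and the cluster led by Pla2g7 held 0 Y-linked barcodes, against 228 and 101 with Xist alone, whereas the cluster led by Car3 held 17 and 46.

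In lung P2, 67 of 1436 kept barcodes passed the same rule (4.67%, 3.63 to 5.89). Against the other lung P2 barcodes 322 genes were at least 2-fold higher (7.04% of 4575) and 166 lower (3.63%). Several mural genes were higher: Higd1b stood at 339 against 5.64 CPM, Cox4i2 at 565 against 13.4 CPM and Notch3 at 364 against 24.2 CPM. Not every gene of the mural list followed: Abcc9 had a log2 ratio of -0.20 and Kcnj8 of -0.28, the latter on 3 UMIs. Pdgfrb, which is in the preadipocyte list, stood at 1292 against 114 CPM. Fibroblast genes varied. Pdgfra stood at 1493 against 1763 CPM and Col3a1 at 3136 against 2951 CPM. Gsn stood lower at 11291 against 17497.5 CPM and Col1a2 at 1807 against 2442 CPM, and Lum had 0 UMIs against 71.2 CPM. Mgp, outside the fibroblast list, stood at 10858 against 11596 CPM. Among preadipocyte genes Fabp4 and Pparg had 0 UMIs, Aoc3 had 1 UMI and Lpl stood at 119 against 115 CPM, while Ebf1 was higher (295 against 48.6 CPM) and Icam1 stood at 176 against 94.1 CPM. Of the genes highest in fat, Nrep was higher in both tissues (194.5 against 83.3 CPM in lung). Vcam1 (345 against 329.8 CPM) and Sparcl1 (2421 against 1828 CPM) stood high in lung whether or not the rule was met. The difference between the tissues was not tested.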

How the data were processed

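For 4 droplet libraries of 3′ ends, 1 per group, the authors deposited UMI counts by gene and barcode, which carry no normalization. Cell Ranger 3.1.0 and mm10 are named in the submitters' processing notes, and the annotation release is not given in the sources used here. The 31053 genes listed gave 31017 symbols once UMIs were added up for 35 symbols that have more than 1 ID. From the counts the kept barcodes, the Col4a1-high cells and the comparison sets were chosen by the rules in the report. No doublets were removed in the main comparison.

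UMIs were summed per group and scaled to CPM. A log2 ratio is that of CPM plus 10, genes at 50 CPM or more in either group were compared, and at least 2-fold refers to that ratio. List genes count as measured at 20 CPM. CPM have exact Poisson and shares exact Clopper-Pearson 95% intervals, and 0 counts allow up to 3. These cover counting error only. Shares were taken after thinning to 2000 UMIs, and unthinned. No test was made, since each group is 1 library.

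Clusters used 2000 variable genes, 30 components, 15 neighbours and Leiden resolution 1 for the library or 0.5 for the Col4a1-high cells (scanpy 1.11.5, Python 3.11.15). Scrublet called 3 barcodes by its own threshold, so the 499 highest scores (0.8% per 1000 barcodes) were used. TMM came from edgeR 4.0.16. The ratio script was tested on simulated data. Coordinates come from GENCODE vM21, matched by gene ID (30934 of 31053), and promoters from RefSeq.

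The cells, the 33 gene lists and the comparisons were chosen with earlier results of these data known. Named are the genes of the rule and the given markers, the 15 highest and 10 lowest ratios, measured members of the basement membrane, collagen maturation, matrix receptor, preadipocyte and gate lists, up to 4 members of every other list and 10 leading genes of a cluster. Genes named beyond these were chosen after their values were seen. Alternatives were 12 planned and 5 added after seeing the data.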

Additional observations from a re-analysis of the deposited data

Results flagged for a closer look

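Among the named genes of the fat P2 comparison that were past 2-fold, and among genes at 50 CPM or more in either group of each tissue, 4 were past 2-fold the other way in the 67 lung P2 barcodes that pass the same rule. Col15a1 had a log2 ratio of 2.58 in fat P2 and -1.23 in lung P2, where it stood at 25.1 CPM (6.84 to 64.2, 4 UMIs) against 72.6 CPM. Lum had 1.27 in fat P2 and -3.02 in lung P2, with 0 UMIs in the 67 barcodes, which allows up to 3 in the group, against 71.2 CPM in the other lung P2 barcodes. Anxa3 had -2.44 in fat P2 and 1.42 in lung P2, at 125 CPM (76.6 to 194, 20 UMIs) against 40.6 CPM. Krt19, a keratin, had -1.46 in fat P2 and 2.01 in lung P2, at 87.8 CPM (48.0 to 147, 14 UMIs) against 14.2 CPM. Under that level in 1 of the tissues, the same opposition was seen for Fabp4 (1.97 in fat P2, -1.44 in lung P2), Smoc2 (2.18, -2.45), Irf7 (-1.15, 1.11), Ifit1 (-1.15, 1.02) and Cd36 (1.01, -3.60). These genes had 0 to 5 UMIs in the 67 barcodes. With 1 library per tissue the differences between tissues were not tested.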

How the results depend on the processing

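The share of Col4a1-high cells among kept fat P2 barcodes, 15.6%, moved with the rule. It was 19.2% (1514 cells) at a limit of 20 per 10000 and 10.3% (813 cells) at 35. It was 13.1% (776 of 5941) without barcodes carrying markers of other cell types, 20.3% (87 of 429) among barcodes with a Y-linked UMI and 13.9% (1101 cells) with a minimum of 10 collagen IV UMIs. The numbers of genes at least 2-fold higher and lower stayed within 1.5 times of 139 and 175 under all 17 alternatives, from 96 and 127 (against barcodes that met the rest of the rule) up to 204 and 244 (with no minimum level) or 199 and 247 (Y-linked barcodes). In the Y-linked barcodes 2 of the 314 genes changed sign. Without the highest Scrublet scores they were 162 and 204, and without barcodes shared with another library 140 and 177. TMM gave 129 and 185. Of the 92 named genes past 2-fold, 68 stayed past it in every alternative, 24 were below it in at least 1, and none changed sign. The alternatives for Y-linked barcodes, Xist barcodes, shared barcodes, 10 UMIs and the cluster led by Pi16 were added after seeing the data. Genes near 50 CPM in the 87 or 67 barcodes of the smallest groups rest on few UMIs. No paired analysis was possible because each group is 1 library and no result comes from a test.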

Other observations

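The promoter windows of the genes past 2-fold can be set beside those of all compared genes. A GC box was held by 48 of the 92 matched higher genes (52.2%), 59 of the 129 matched lower genes (45.7%) and 1738 of the 2719 matched compared genes (63.9%). A TATA box was held by 14 (15.2%), 19 (14.7%) and 204 (7.50%) of them, and the AP-1 site by 4 (4.35%), 6 (4.65%) and 76 (2.80%). CCAAT was held by 24 (26.1%), 40 (31.0%) and 967 (35.6%), and the EBF palindrome by 3 (3.26%), 2 (1.55%) and 21 (0.772%). The remaining genes past 2-fold, among 139 higher and 175 lower, had no matched window. These are counts of letters in 250 bases before annotated starts and were not tested.

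The second library cluster holding many Col4a1-high cells, led by Igfbp2, Hc, Slit2 and Tnc, counted 741 barcodes, of which 319 (43.0%) met the rule. It held 0 Y-linked barcodes and 707 with Xist alone. The cluster led by Cilp, Thbs4, Hmcn2 and Myoc counted 348 barcodes, of which 134 (38.5%) met the rule, with 26 Y-linked and 266 Xist barcodes. In the cluster led by Nrep and Aoc3, 546 of 751 barcodes met it (72.7%), with 67 and 592. A cluster of 83 barcodes led by the milk and gland genes Wfdc18, Ltf and Csn3 held 7 Col4a1-high cells.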
